A study of Mus musculus with 24 samples.

Results

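Transcripts of cholesterol synthesis, cholesterol handling and the SREBP control system were followed through 8 circadian times in mouse liver. The set was defined by gene name alone and held 28 genes, of which 26 could be measured, on 28 of the array's 28815 probe sets and among 19935 named genes. They were 17 of the 18 listed enzymes of the pathway, 4 regulators (Srebf2, Scap, Insig1 and Insig2) and 5 genes of sterol transport or receptor turnover (Npc1l1, Npc1, Npc2, Stard4 and Mylip). Acat2 and Soat2 had no probe set with their symbol alone and were not analysed here. Idi1 and Fdft1 each had a pair of probe sets, which were averaged (Pearson r 0.988 and 0.952 over the 24 arrays).

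Cholesterol is built from acetyl units that pass through mevalonate, isoprenoid phosphates and squalene to lanosterol, which is then trimmed and reduced to cholesterol. The genes of this pathway are classical targets of SREBP-2, the product of Srebf2, which is held in the endoplasmic reticulum as a membrane-bound precursor. SCAP escorts the precursor to the Golgi for cleavage when sterols are scarce, and the INSIG proteins retain SCAP and its cargo when sterols are plentiful.

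All livers came from adult male C57BL/6 mice with no genetic change or drug. The animals had lived on alternating light and dim red light, were moved to dim red light throughout with food always at hand, and were sampled on the second cycle after that. RNA of each liver was hybridized separately to an Affymetrix Mouse Gene 1.0 ST array, with 3 livers at each of CT00, CT03, CT06, CT09, CT12, CT15, CT18 and CT21 (24 arrays in all). The protocol texts differ on animals per time (4 mice harvested, 3 replicates processed), and the series text names 4 times; the grouping follows the sample labels. CT00 is the start of the subjective day and CT12 of the subjective night, when mice are active. The values are log2 intensities from which the median of each probe set over the 24 arrays has been taken, so a value gives the distance of a gene from its own median and says nothing of its level against another gene. The base of the logarithm is not stated in the sources used here, and each fold holds for base 2.

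All 5 of the measured hepatocyte markers lay in the brighter of 2 intensity classes, which the rounding of the values reveals, as did 19 of the 26 cholesterol genes. The dimmer class held Mvk, Pmvk, Mvd, Lss, Srebf2, Npc1l1 and Mylip. None (0) of the bile duct, enterocyte, lymphocyte, neutrophil or steroidogenic markers was in the brighter class, and 1 of 5 Kupffer, 1 of 5 stellate, 1 of 3 adipocyte and 3 of 4 endothelial markers were. The clock genes Arntl, Nr1d1, Nr1d2, Dbp and Per2 swung by 2.50-fold to 10.3-fold with fitted peaks at 22.7, 7.29, 9.99, 10.1 and 15.2 h of circadian time. Array CT15 replicate 1 lay below and CT15 replicate 2 above the other arrays of that time for the enzymes (mean deviation -0.20 and 0.18). They are called doubted below for these enzyme values alone. Over all genes their root mean square deviations (0.125 for each) were close to that of CT09 replicate 3 (0.121). Counts, calls and correlations that move without both CT15 arrays are given without them too. Without both, 20 of 26 genes were called by the 24 h test described next and 18 by the test over 8 times. In whole liver, fewer cells of a type and less RNA per cell cannot be told apart.

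The enzymes and regulators that passed had fitted peaks around subjective dawn, from 22.5 h (Lss) to 4.54 h (Nsdhl). Their fitted troughs ran from 10.5 h, before subjective dusk, to 16.5 h, after it. The highest time means of Msmo1 and Scap were at CT06. A 24 h cosine wave, tested by limma's moderated F test with Benjamini-Hochberg adjustment over all genes at 0.05, was called in 19 of the 26 genes, against 13.8% of all genes tested. Brighter genes were called more often in general. Among the brighter probe sets alone, 16 of 19 of the cholesterol genes were called, against 1115 of all 2744 genes. The 19 genes called with all probe sets were 14 of 17 enzymes, 3 of 4 regulators and 2 of 5 transport genes. Every called enzyme and regulator peaked between 21 h and 6 h of circadian time, so that 17 of 26 genes were called with a peak in that window, against 4.74% of all genes. Both called transport genes, Npc1 and Stard4, peaked outside it, as did 9.10% of all genes. The median fitted fold from trough to peak was 1.41 for the enzymes, 1.36 for the regulators and 1.15 for the transport genes, beside 1.07 over all genes. Of the 26 genes, 7 were called with a fold of at least 1.5, against 2.12% of all genes. They were Hmgcs1, Pmvk, Mvd, Fdft1, Lss, Insig2 and Npc1.

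**Figure D1:**
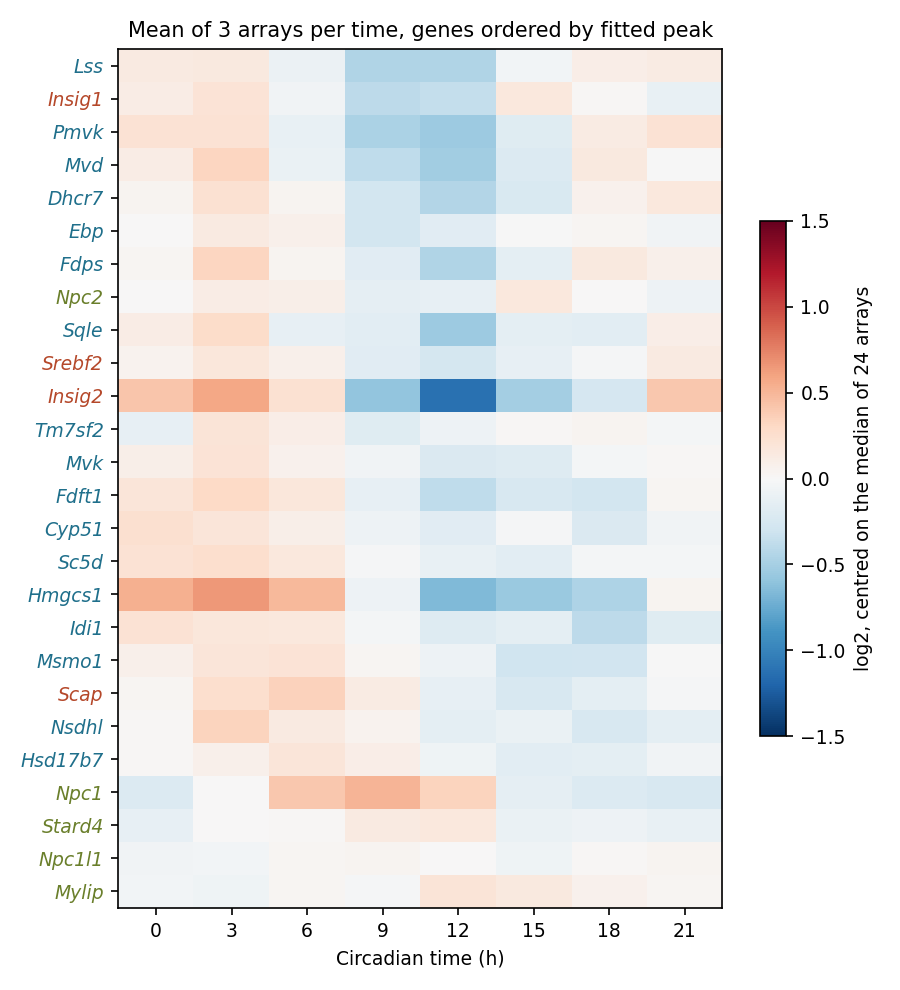
Mean centred log2 value of each of the 26 genes (rows, ordered by fitted peak; enzymes in blue lettering, regulators in red, transport genes in green) at each circadian time in h (columns, 3 arrays each). The deepest blue cell is Insig2 at CT12 (-1.11), and the row of Npc1 is highest at CT09 (0.52).

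Upstream sequences are shown for Hmgcs1, Lss, Msmo1, Srebf2, Insig1 and Insig2, because the called enzymes peaked in one window. These are examples, and the windows of Scap, Pmvk and Nsdhl, among others, are not printed. RefSeq windows of the 250 bases before the annotated start (build GRCm38.p6) were at hand for 21 of the 26 genes. Each lies upstream of its own annotated start, and for a gene with several listed starts a window can lie downstream of another start. Capitals mark every match, on either strand, to the letters CCAAT (bound by NF-Y, a classical partner of SREBP), CACNCCAC (the core of the sterol regulatory element), CACGTG (the E-box used by CLOCK and BMAL1), TAGGTCA (bound by REV-ERB and ROR) or TTATGTAA (the D-box). The windows are Hmgcs1, chr13:119690101-119690350 on the plus strand; Lss, chr10:76531355-76531604, plus; Msmo1, chr8:64733579-64733828, minus; Srebf2, chr15:82147019-82147268, plus; Insig1, chr5:28071162-28071411, plus; and Insig2, chr1:121332590-121332839, minus, the first of its 3 listed starts and the only one of them with a match.
Hmgcs1: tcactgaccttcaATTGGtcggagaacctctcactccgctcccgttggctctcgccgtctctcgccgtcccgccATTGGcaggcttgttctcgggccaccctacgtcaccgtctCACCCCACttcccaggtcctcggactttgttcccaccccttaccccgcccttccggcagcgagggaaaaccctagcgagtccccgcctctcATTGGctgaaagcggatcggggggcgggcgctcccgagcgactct
Lss: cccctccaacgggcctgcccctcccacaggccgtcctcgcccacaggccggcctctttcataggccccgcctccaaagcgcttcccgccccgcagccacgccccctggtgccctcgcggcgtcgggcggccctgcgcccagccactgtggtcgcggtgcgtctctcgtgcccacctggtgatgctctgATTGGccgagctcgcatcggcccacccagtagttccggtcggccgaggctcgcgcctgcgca
Msmo1: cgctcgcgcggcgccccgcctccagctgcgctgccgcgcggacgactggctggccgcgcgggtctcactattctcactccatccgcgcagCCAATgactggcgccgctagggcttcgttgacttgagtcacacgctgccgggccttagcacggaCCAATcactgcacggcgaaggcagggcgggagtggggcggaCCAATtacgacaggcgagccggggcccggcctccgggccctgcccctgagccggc
Srebf2: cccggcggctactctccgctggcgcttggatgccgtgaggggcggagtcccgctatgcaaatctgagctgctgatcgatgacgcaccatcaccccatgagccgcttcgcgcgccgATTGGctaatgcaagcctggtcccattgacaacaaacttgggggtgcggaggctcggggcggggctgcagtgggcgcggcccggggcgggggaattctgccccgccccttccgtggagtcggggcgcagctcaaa
Insig1: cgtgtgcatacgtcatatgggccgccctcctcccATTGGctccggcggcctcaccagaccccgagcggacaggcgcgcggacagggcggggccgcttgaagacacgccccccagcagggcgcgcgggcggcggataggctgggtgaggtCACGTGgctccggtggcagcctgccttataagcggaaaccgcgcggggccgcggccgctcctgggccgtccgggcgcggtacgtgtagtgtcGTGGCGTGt
Insig2: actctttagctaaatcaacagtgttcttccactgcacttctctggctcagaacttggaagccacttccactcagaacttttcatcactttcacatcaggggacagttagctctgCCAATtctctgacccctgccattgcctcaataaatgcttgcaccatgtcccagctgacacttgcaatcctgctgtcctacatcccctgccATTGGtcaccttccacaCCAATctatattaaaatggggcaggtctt

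CCAAT was present in 20 of the 21 genes with a window (95.2%), with Scap as the exception, against 38.8% of the 15612 measured genes with a window and 33.8% of all 32851 windows. Every sequence printed above holds a match to CCAAT, and Scap is the regulator that is not printed. CACGTG was present in 5 of the 21 (23.8%; Hsd17b7, Insig1, Dhcr7, Sc5d and Scap) against 8.11% of measured genes. The core CACNCCAC was found in Hmgcs1 and Insig1 (9.52% against 6.35%), and the longer 10-base form of that element in none of the 21 (0) against 0.199%. TAGGTCA was found in Dhcr7 alone (4.76% against 2.31%) and TTATGTAA in none (0) against 0.897%. The CACGTG and TAGGTCA matches of Dhcr7 lie in a window that is mostly downstream of an earlier listed start of that gene. These shares describe letters in fixed windows, were not matched for base composition, and count a gene once if any of its windows matched.

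Hmgcs1, the synthase that makes HMG-CoA, had the widest swing among the enzymes. Its 3 arrays read 0.53, 0.53 and 0.54 at CT00, then 0.63, 0.86 and 0.47 at CT03, and 0.48, 0.54 and 0.43 at CT06. They fell to -0.52, -0.71 and -0.74 at CT12, stayed at -0.87, -0.29 and -0.51 at CT15 and at -0.52, -0.40 and -0.47 at CT18, and crossed zero at CT09 and CT21 (-0.19 to 0.10). No array of CT00 to CT06 overlapped one of CT12 to CT18. The fitted peak was at 2.60 h (SE 0.22) with a 2.59-fold swing (adjusted p = 4.05e-11, limma).

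Pmvk and Mvd, further along the mevalonate steps, had earlier fitted peaks than Hmgcs1. The highest time mean was at CT21 for Pmvk but at CT03 for Mvd, as for Hmgcs1. Pmvk, phosphomevalonate kinase, read 0.29, 0.18 and 0.18 at CT00 and 0.21, 0.22 and 0.24 at CT21. It read -0.67, -0.35 and -0.40 at CT09 and -0.46, -0.45 and -0.72 at CT12, below every array of CT00 and CT21. Its peak was fitted at 22.9 h (SE 0.43) with a 1.74-fold swing (adjusted p = 2.10e-06, limma).

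Mvd, the decarboxylase that makes isopentenyl diphosphate, had its lowest time mean at CT12 (arrays at -0.55, -0.36 and -0.67) and its highest at CT03 (0.56, 0.29 and 0.10), with no overlap between them. By CT18 it stood at 0.09, 0.23 and 0.13, above all arrays of CT09 and CT12. Its peak was fitted at 23.6 h (SE 0.72), with a 1.56-fold swing. Mvk, mevalonate kinase, swung by 1.28-fold with a peak at 1.83 h (SE 0.65).

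Idi1, the isomerase that makes dimethylallyl diphosphate, had a late fitted peak, though its highest time mean was at CT00. It read 0.24, 0.20 and 0.23 at CT00 and was lowest at CT18 (-0.53, -0.46 and -0.20), without overlap. Its peak was fitted at 3.93 h (SE 0.76), and the swing was 1.43-fold. Fdps, farnesyl diphosphate synthase, read 0.46, 0.37 and 0.13 at CT03 and -0.15, -0.36 and -0.86 at CT12. It was back at 0.15, 0.19 and 0.09 by CT18, its peak was fitted at 0.23 h (SE 0.90), and the 1.41-fold swing lost its call without CT03 (adjusted p = 0.0707, limma) or without CT12 (adjusted p = 0.123).

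Among the squalene enzymes, Fdft1, squalene synthase, had a course close to that of Hmgcs1. It read 0.26, 0.42 and 0.22 at CT03 and -0.29, -0.35 and -0.51 at CT12, and every array of CT00 to CT06 lay above every array of CT12 to CT18 (0.04 the lowest, 0.03 the highest). The peak was fitted at 2.27 h (SE 0.40) with a 1.56-fold swing (adjusted p = 7.12e-07, limma). Sqle, squalene epoxidase, had its lowest time mean at CT12 (arrays at -0.47, -0.39 and -0.78) and its highest at CT03 (0.34, 0.43 and 0.05), with no overlap between them, though CT06 replicate 3 read -0.52. Its 1.49-fold swing peaked at 0.47 h (SE 0.77) and lost its call without CT12 (adjusted p = 0.0784, limma).

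Lss, lanosterol synthase, which closes the sterol rings, had the earliest fitted peak of the called enzymes, at 22.5 h (SE 0.57). It read -0.55, -0.48 and -0.34 at CT09 and -0.46, -0.20 and -0.71 at CT12. At CT15 it read -0.14, 0.19 and -0.15, of which the last is the array not doubted, a time when Hmgcs1 still read -0.87, -0.29 and -0.51. The swing was 1.53-fold (adjusted p = 1.13e-04, limma, and 2.28e-05 without both doubted CT15 arrays).

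**Figure D2:**
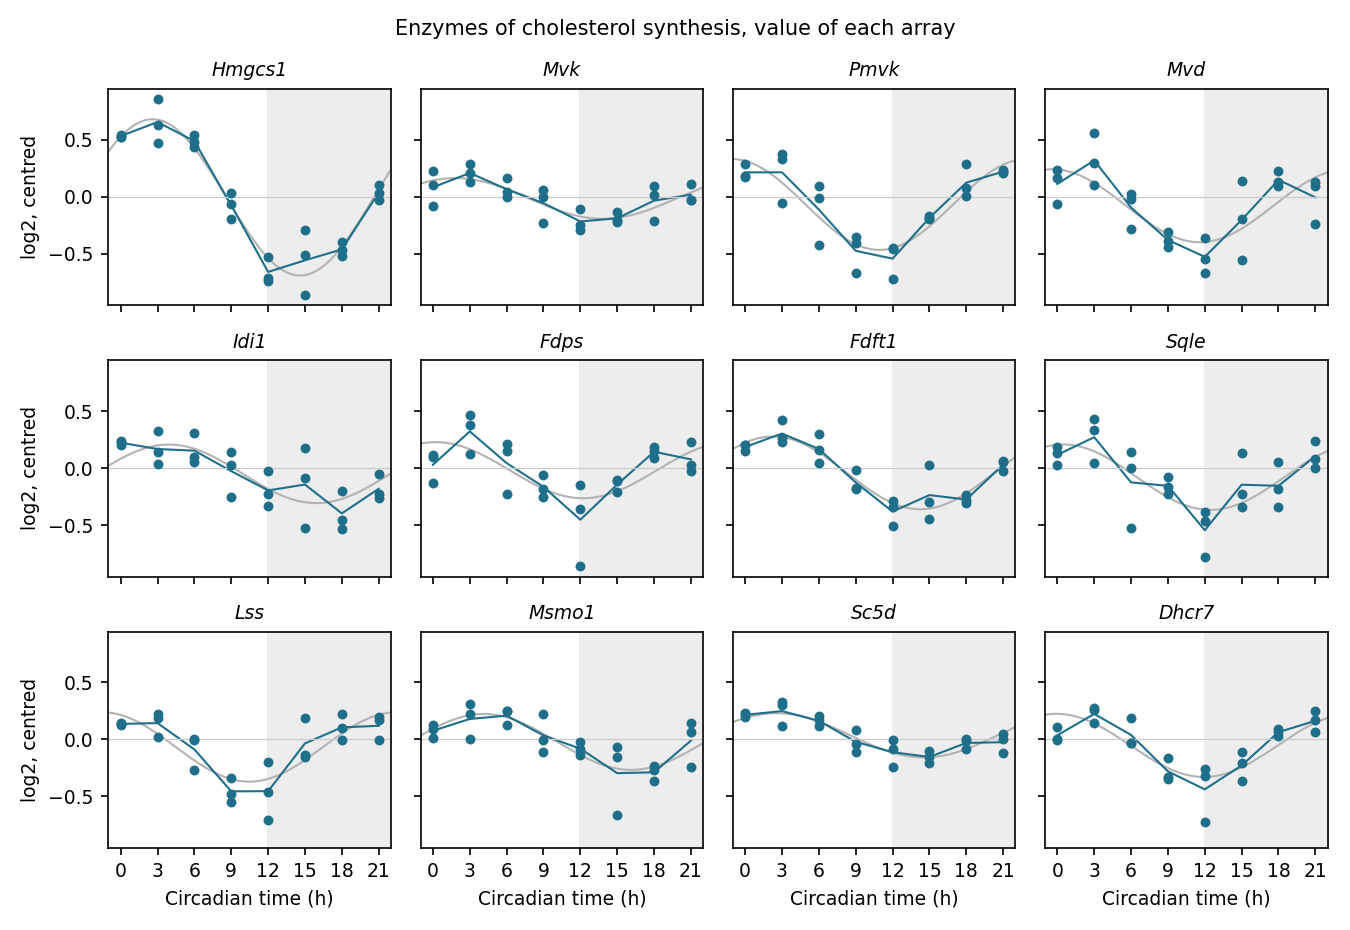
Centred log2 value of each array (points) against circadian time in h for 12 enzymes, with the mean of each time (line) and the fitted 24 h wave (grey); shading marks the subjective night. Hmgcs1 was lowest from CT12 to CT18, and the lowest time means of Lss were at CT09 and CT12.

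The enzymes that turn lanosterol into cholesterol fell into called and uncalled members. Dhcr7, which makes the last reduction of one branch, read 0.27, 0.14 and 0.26 at CT03 and -0.32, -0.26 and -0.73 at CT12. All arrays of CT09 to CT15 (-0.73 to -0.11) lay below all arrays of the other times. The peak was fitted at 23.9 h (SE 0.57) with a 1.47-fold swing (adjusted p = 1.07e-04, limma).

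Msmo1, the sterol C4 methyl oxidase, was late. It read 0.12, 0.25 and 0.25 at CT06 and -0.66, -0.07 and -0.16 at CT15. At CT18 it read -0.36, -0.27 and -0.23, and no array of CT15 or CT18 reached those of CT00 to CT06. The peak was fitted at 4.13 h (SE 0.64) with a 1.41-fold swing (adjusted p = 4.09e-04, limma, and 3.72e-04 without both doubted CT15 arrays).

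Nsdhl, which acts next to Msmo1 in C4 demethylation, read 0.27, 0.34 and 0.39 at CT03 and -0.45, -0.13 and -0.14 at CT18. Its peak was fitted at 4.54 h (SE 0.83), and the 1.36-fold swing lost its call without CT03 (adjusted p = 0.104, limma). Sc5d, the sterol C5 desaturase, had a small but tight 1.31-fold swing with a peak at 2.55 h (SE 0.47, adjusted p = 9.17e-06, limma). Cyp51, lanosterol demethylase, was the weakest call, at 1.28-fold (adjusted p = 0.0426, limma). Its call was lost without any 1 of 16 of the 24 arrays (adjusted p from 0.0503 to 0.103), which were all 3 of CT00 and CT03, replicates 1 and 2 of CT06, CT18 and CT21, replicates 1 and 3 of CT12, replicate 3 of CT09 and replicate 1 of CT15.

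Hsd17b7, Ebp and Tm7sf2 were not called. Hsd17b7, the 3-keto reductase of C4 demethylation, had a fitted swing of 1.24-fold with a peak at 5.11 h (adjusted p = 0.0675, limma). It passed without CT09 replicate 2 (adjusted p = 0.0489), CT15 replicate 2 (adjusted p = 0.0265) or CT21 replicate 3 (adjusted p = 0.0418). Ebp, the sterol isomerase, had a fitted swing of 1.17-fold (adjusted p = 0.294) and Tm7sf2, a sterol C14 reductase, one of 1.07-fold (adjusted p = 0.80).

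Insig2, one of the 2 SREBP retention proteins, had the widest swing of all 26 genes. It read 0.46, 0.51 and 0.76 at CT03 and 0.23, 0.52 and 0.46 at CT21, and fell to -1.32, -1.04 and -0.99 at CT12. All 12 arrays from CT09 to CT18 (-1.32 to -0.06) lay below all 12 arrays of the other times (0.06 to 0.76). The swing was 2.88-fold with a peak at 0.68 h (SE 0.31, adjusted p = 1.45e-08, limma).

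Insig1, the other retention protein and itself a known SREBP target, followed another course. It was low at CT09 (-0.48, -0.64 and -0.07) and CT12 (-0.46, -0.08 and -0.53) and high again at CT15 (0.06, 0.31 and 0.08), level with CT00 (0.07, 0.10 and 0.18). It did not pass the 24 h test (adjusted p = 0.109, limma) but passed the test of any difference among the 8 times (adjusted p = 0.00865). Without CT15 replicate 2 the 24 h call was made (adjusted p = 0.038), and likewise without both doubted CT15 arrays (adjusted p = 0.0216).

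Srebf2, the precursor gene itself, moved less. Its arrays read 0.29, 0.11 and 0.13 at CT03, 0.12, 0.15 and 0.13 at CT21, and -0.31, -0.16 and -0.31 at CT12. No array of CT09 to CT15 reached one of CT00, CT03 or CT21. The swing was 1.29-fold with a peak at 0.51 h (SE 0.58, adjusted p = 1.24e-04, limma).

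Scap, the escort, was later. It read 0.34, 0.48 and 0.22 at CT06 and -0.06, -0.41 and -0.26 at CT15, and no array of CT12 to CT18 reached those of CT03 and CT06. The swing was 1.43-fold with a peak at 4.47 h (SE 0.50, adjusted p = 1.74e-05, limma, and 4.5e-05 without both doubted CT15 arrays). Srebf1, which encodes the SREBP form tied mainly to fatty acid synthesis, had a fitted swing of 1.20-fold with a peak at 14.9 h and did not pass (adjusted p = 0.376).

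**Figure D3:**
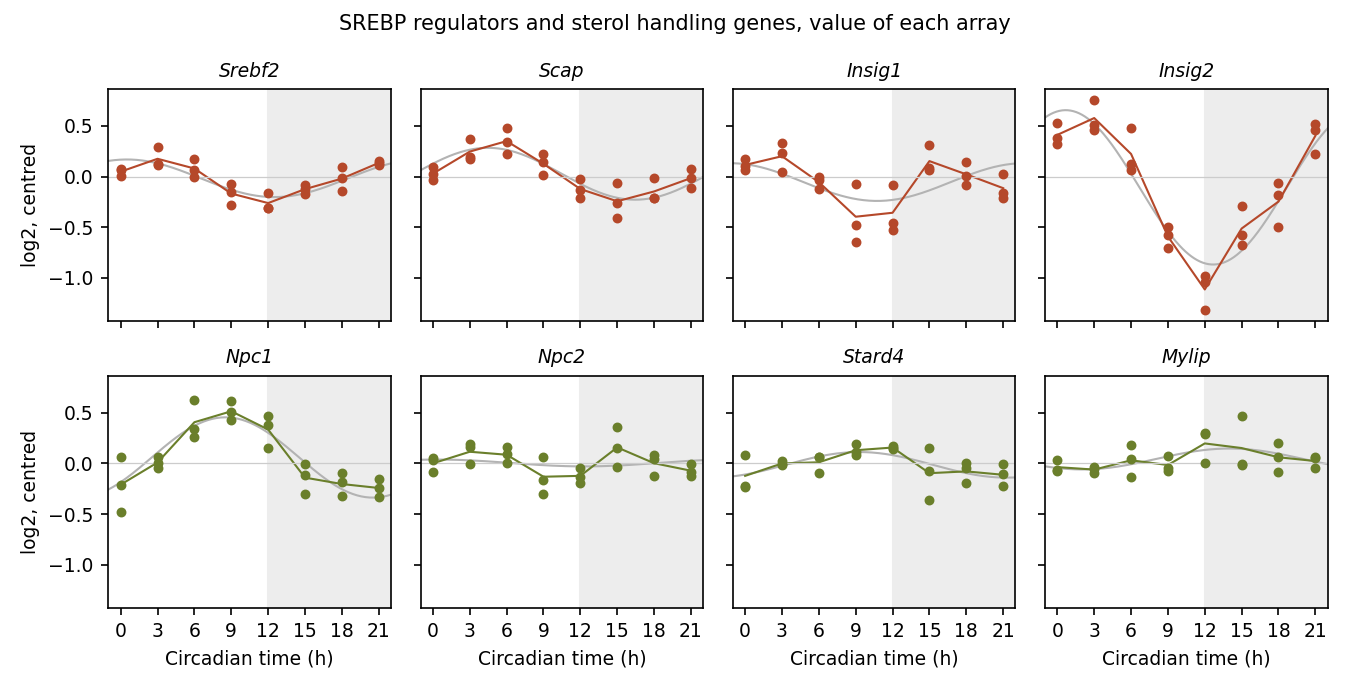
Centred log2 value of each array (points) against circadian time in h for the 4 regulators (top, red) and 4 of the transport genes (bottom, green), with time means (line), the fitted 24 h wave (grey) and shading for the subjective night. All panels share one scale, on which Insig2 reached -1.32 at CT12 and Insig1 dipped at CT09 and CT12.

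None (0) of the 5 transport genes was called with a peak between 21 h and 6 h. Npc1, the membrane protein that moves cholesterol out of lysosomes, read 0.43, 0.50 and 0.61 at CT09 and -0.33, -0.24 and -0.15 at CT21. All arrays of CT06 to CT12 (0.15 to 0.63) lay above all arrays of the other times (-0.48 to 0.07). The swing was 1.73-fold with a peak at 8.53 h (SE 0.42, adjusted p = 1.60e-06, limma). At CT00 its arrays were spread (-0.48, -0.21 and 0.07), as were those of the clock gene Nr1d1 at that time (-1.71, -0.78 and -0.17), while Hmgcs1 at CT00 varied by an SD of 0.01.

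Stard4, a cytosolic sterol carrier, swung by 1.19-fold with a peak at 9.29 h (SE 1.04, adjusted p = 0.0364, limma). That call was lost without any 1 of 10 arrays (adjusted p from 0.0506 to 0.0809): replicates 1 and 2 of CT00, replicate 1 of CT06, CT18 and CT21, replicates 1 and 3 of CT09, and all 3 of CT12. Mylip, the ubiquitin ligase that marks lipoprotein receptors for degradation, had a fitted swing of 1.15-fold with a peak at 14.02 h and did not pass (adjusted p = 0.156). Npc2, the soluble partner of Npc1, and Npc1l1, the sterol importer, had fitted swings of 1.05-fold and 1.02-fold (adjusted p = 0.906 and 0.975).

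The order of fitted peaks along the pathway was then compared. The 14 called enzymes peaked within a span of 6.07 h, from Lss at 22.5 h to Nsdhl at 4.54 h, with a median of 2.05 h. Of the 13 steps from one called enzyme to the next, 6 went to a later peak, the median size of a step was 2.00 h, and the Spearman correlation of pathway position with peak time was 0.20 over the 14 enzymes, which share the same 24 arrays.

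Differences in peak time were given 95% intervals that carry the covariance between genes on the same arrays, with no adjustment over the 34 pairs. Along the sorted order of the 19 called genes, 1 of 18 neighbouring pairs was separated, Nsdhl and Npc1 (3.99 h, interval 1.85 to 6.13). Neighbours were picked by these same fitted peaks, which makes their differences small by construction, so the count of separated neighbours decides nothing. Against Hmgcs1, the widest and first enzyme, 8 of 18 genes had an earlier fitted peak. The difference was -4.13 h for Lss (-5.36 to -2.91), -3.68 h for Pmvk (-4.63 to -2.74) and -3.01 h for Mvd (-4.51 to -1.52). It was -2.67 h for Dhcr7, -2.37 h for Fdps, -2.13 h for Sqle, -2.10 h for Srebf2 (-3.35 to -0.84) and -1.93 h for Insig2 (-2.67 to -1.18). Of these 8 genes, Pmvk alone had its highest time mean before that of Hmgcs1 (CT21 against CT03). The others had theirs at CT03, as Hmgcs1 did, so their lead is one of the fitted wave.

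Fitted peaks later than that of Hmgcs1 were those of Msmo1 by 1.53 h (0.28 to 2.77), Scap by 1.87 h (0.60 to 3.13) and Nsdhl by 1.93 h (0.28 to 3.58). Npc1 was later by 5.92 h (4.88 to 6.97) and Stard4 by 6.68 h (4.37 to 8.998). Nsdhl had its highest time mean at CT03, as did Hmgcs1. Mvk, Fdft1, Cyp51, Sc5d and Idi1 were not separated from Hmgcs1. For Fdft1 the interval was narrow (-0.86 to 0.19 h), and for Cyp51 it was wide (-2.18 to 1.92 h). The interval of Nsdhl reached zero without CT09 replicate 3 or CT21 replicate 1 (1.66 and 1.67 h), and Idi1 was separated as the later gene without any 1 of 7 arrays (1.17 to 1.62 h), which were replicates 1 and 3 of CT00 and CT06, CT09 replicate 1, CT15 replicate 2 and CT18 replicate 3.

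**Figure D4:**
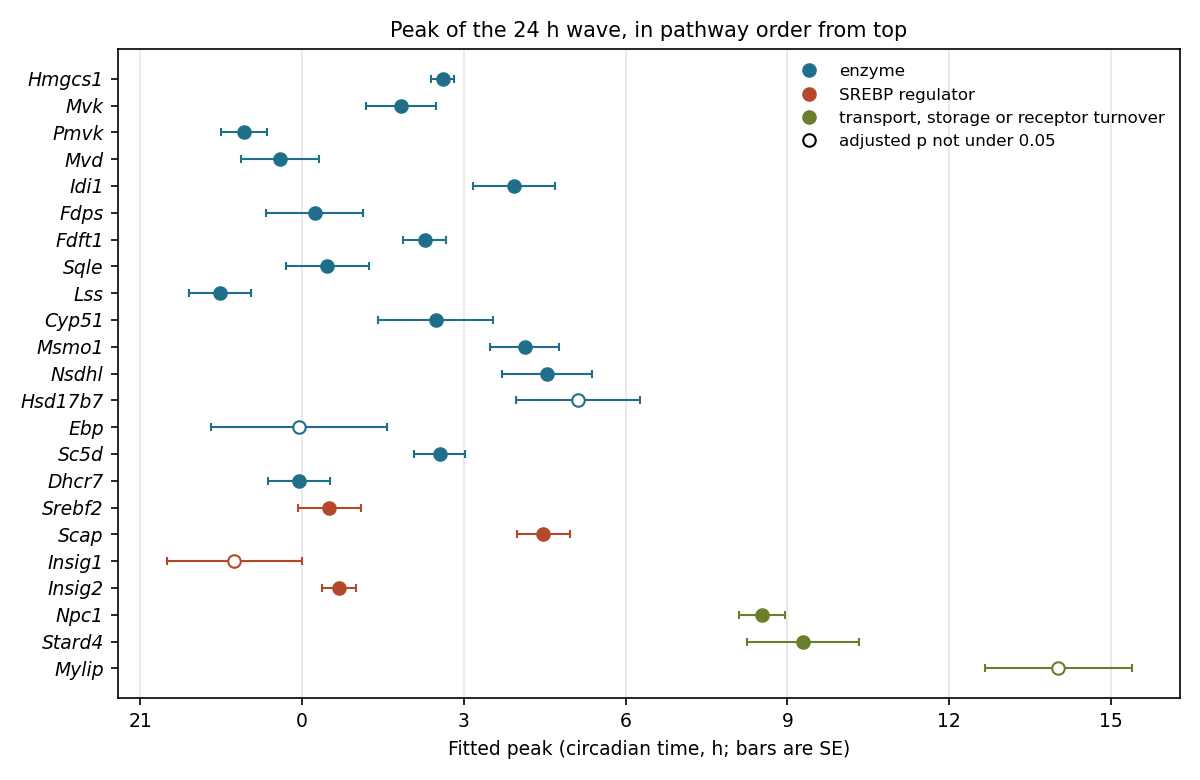
Fitted peak in h of circadian time with its SE, by gene, for enzymes in pathway order, regulators and transport genes; open circles are genes not called, and Npc1l1, Npc2 and Tm7sf2, whose SE exceeds 3 h, are left out. Filled enzyme points lie between 22.5 h and 4.54 h, and those of Npc1 and Stard4 at 8.53 and 9.29 h.

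Livers taken 12 h apart gave the size of the change at given times, from a fit of the 8 time means with one shared estimate of the spread. From CT00 to CT12, 11 of 26 genes were lower, against 1.67% of all genes, and Npc1 was higher by 0.54 on the log2 scale, against 1.79%. The median difference over the 26 genes was -0.32, beside -0.00083 over all genes. Hmgcs1 fell by 1.19 (SE 0.11, adjusted p = 3.17e-07, limma) and Insig2 by 1.53 (SE 0.13, adjusted p = 1.81e-07). Pmvk fell by 0.76, Lss by 0.59, Fdft1 by 0.57 and Dhcr7 by 0.47, and these 6 calls stood without any 1 array. The other 6 (Mvd, Sqle, Sc5d, Srebf2, Insig1 and Npc1) were lost without CT12 replicate 3, which left 6 calls. Some of them were also lost without CT00 replicate 1 (Mvd, Sqle, Insig1 and Npc1), CT00 replicate 2 (Mvd, Sqle, Insig1 and Srebf2), CT00 replicate 3 (Insig1) or CT12 replicate 1 (Mvd, Insig1 and Srebf2), with adjusted p from 0.0511 to 0.233 by limma.

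From CT03 to CT15, 10 genes were lower, against 1.80% of all genes, and none (0) was higher at the adjusted threshold, against 2.68%, or at an unadjusted p below 0.05 (limma). Hmgcs1 fell by 1.21, Insig2 by 1.09, Fdft1 by 0.54, Scap by 0.49, Dhcr7 by 0.45 and Sc5d by 0.40, and these 6 calls stood without any 1 array. Msmo1 (-0.48), Mvd (-0.52), Mvk (-0.40) and Srebf2 (-0.30) lost theirs without at least 1 array. For Srebf2 that was CT03 replicate 1 (adjusted p = 0.0996, limma), for Mvk CT03 replicate 2 (adjusted p = 0.0607), and for Msmo1 CT03 replicate 2, CT03 replicate 3 or CT15 replicate 1 (adjusted p from 0.0941 to 0.123). Mvd lost its call without any 1 of 7 arrays (adjusted p from 0.0501 to 0.238): CT00 replicate 2, CT03 replicates 1 and 2, CT12 replicate 1, CT15 replicates 1 and 3 and CT18 replicate 1. Without both doubted CT15 arrays, which leaves 1 array at CT15 that is assumed to vary like the other times, 6 genes were called. Of these 5 were lower (Hmgcs1, Insig2, Fdft1, Scap and Sc5d) and Mylip was higher (adjusted p = 0.0306), while Dhcr7 did not pass (adjusted p = 0.13).

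From CT06 to CT18, 7 genes were lower, against 3.21% of all genes, and none (0) higher, against 1.43%, or higher at an unadjusted p below 0.05 (limma). Hmgcs1 fell by 0.95, Npc1 by 0.61, Scap by 0.50 and Fdft1 by 0.44, and these 4 calls stood without any 1 array. Idi1 (-0.55), Msmo1 (-0.50) and Insig2 (-0.47) did not, and 4 calls were left without CT06 replicate 2, CT18 replicate 1 or CT18 replicate 2. Idi1 lost its call without CT06 replicate 1 too, and Msmo1 without CT06 replicate 3. Insig2 lost its own without any 1 of 11 arrays (adjusted p from 0.0503 to 0.254, limma): those 3, CT00 replicates 1 and 2, CT03 replicate 2, CT06 replicate 3, CT09 replicates 1 and 2, CT12 replicate 2 and CT21 replicate 3. By this time Lss (0.19), Pmvk (0.24), Mvd (0.24) and Fdps (0.10) had fitted differences above zero that did not pass.

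From CT09 to CT21 more genes rose than fell. Insig2 rose by 0.99 (SE 0.13, adjusted p = 7.21e-05, limma), Pmvk by 0.70 and Lss by 0.57, while Npc1 fell by 0.76 (SE 0.12, adjusted p = 5.11e-04). Dhcr7 rose by 0.44 and Srebf2 by 0.30, so that 5 genes were higher, against 1.56% of all genes, and 1 lower, against 2.00%. Without CT21 replicate 3 the calls of Dhcr7 (adjusted p = 0.0594) and Srebf2 were lost. Srebf2 lost its call without CT09 replicate 2 or CT21 replicate 2 too (adjusted p from 0.053 to 0.0922 over the 3). Hmgcs1 differed by 0.11 (SE 0.11, adjusted p = 0.779) between these times, which lie on either side of its peak. Among the brighter probe sets alone, 3 of 19 cholesterol genes were called in either direction, against 358 of all 2744 genes.

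Shape was examined by a test of any difference among the 8 times and by a 12 h wave added to the 24 h wave. The former called 17 of 26 genes, against 10.9% of all genes. They were 12 enzymes, the 4 regulators and Npc1. Idi1 lost this call without replicate 1 or 2 of CT00 or CT18, and Mvk without CT03 replicate 1 or 2 or CT12 replicate 1 or 3. Msmo1 lost it without replicate 2 or 3 of CT03 or CT06 or replicate 1 or 2 of CT18, and Sqle without CT12 replicate 3 (adjusted p from 0.0506 to 0.0752 over these 4 genes, limma). The 12 h wave was called in Insig1 alone (amplitude 0.22, adjusted p = 0.0399), against 0.577% of all genes, and 11 of 26 genes had an unadjusted p below 0.05, against 16.7% of all genes. That call was lost without any 1 of 13 arrays (adjusted p from 0.051 to 0.103), which were all 3 of CT00, replicates 1 and 2 of CT03, CT06 and CT09, replicates 2 and 3 of CT15 and replicates 1 and 3 of CT21.

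Livers of one time could be compared with each other to see which genes deviated together. Each array's distance from the mean of its time was correlated between Hmgcs1 and 6 genes over the 24 arrays, with 100000 permutations within times and Benjamini-Hochberg adjustment over the 6. With Fdft1, Pearson r was 0.848 (permutation p = 0.00159, adjusted p = 0.00954) and Spearman rho 0.718 (permutation p = 0.00484, adjusted p = 0.029). With Sqle, r was 0.604 (permutation p = 0.00988, adjusted p = 0.0296) and rho 0.586 (permutation p = 0.0182, adjusted p = 0.0545). Insig1 gave r 0.404 and rho 0.493 (permutation p = 0.105 and 0.0665, adjusted p = 0.21 and 0.133).

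Insig2 (r -0.006, rho 0.03), Srebf2 (r -0.016, rho -0.06) and Mylip (r 0.095, rho 0.107) gave values near zero (permutation p from 0.705 to 0.984, adjusted p from 0.906 to 0.984). The 2 arrays farthest from the median were CT15 replicates 1 and 2, with Hmgcs1 at -0.31 and 0.26 from their time mean. Without them r with Fdft1 was 0.71 (permutation p = 0.00654, adjusted p = 0.0392), while rho was 0.634 and did not pass (permutation p = 0.017, adjusted p = 0.102). For Sqle r was 0.501 (permutation p = 0.04, adjusted p = 0.12) and rho 0.474 (permutation p = 0.0669, adjusted p = 0.201), and neither passed.

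**Figure D5:**
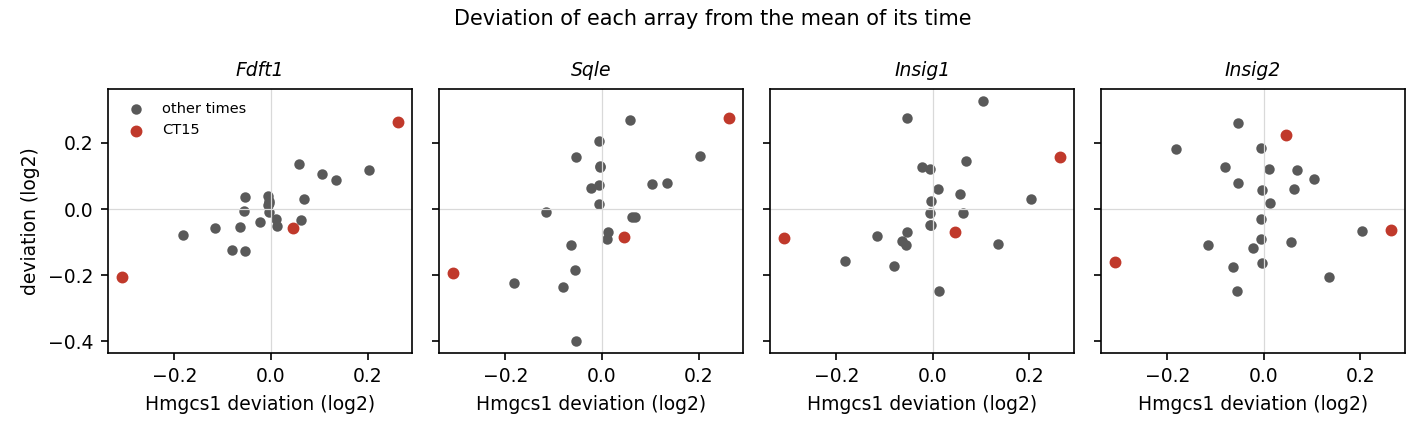
Deviation of each array from the mean of its time (log2) for Fdft1, Sqle, Insig1 and Insig2 against that of Hmgcs1; each point is one liver, and CT15 is in red. The Fdft1 points rise with Hmgcs1 (r 0.848), and the Insig2 points do not (r -0.006).

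Of 36 further cholesterol genes that were listed, 29 were measured and 7 were called by the 24 h test, 4 of them with a peak between 21 h and 6 h, against 13.8% and 4.74% of all genes. Their median fitted fold was 1.13. Stard5, a sterol-binding protein related to Stard4, swung by 1.30-fold with a peak at 12.6 h (adjusted p = 6.13e-05, limma). Rnf145, a ubiquitin ligase of the endoplasmic reticulum that acts on the SREBP system, swung by 1.67-fold with a peak at 12.2 h (adjusted p = 1.19e-04), beside 0.68 h for Insig2. Nr1h3, the oxysterol receptor LXR alpha, swung by 1.20-fold with a peak at 20.4 h (adjusted p = 0.00239), a call lost without CT09 (adjusted p = 0.0549).

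Of 39 measured markers of liver and other cell types 6 were called (15.4%), beside 13.8% of all genes. Of the 34 for other cell types 4 were called, namely Pdgfrb (stellate cells, 1.32-fold, peak 2.71 h), Sox9 (bile duct, 1.37-fold, 22.7 h), Fabp2 (enterocytes, 1.49-fold, 6.07 h) and Car3 (adipocytes, 1.14-fold, 1.99 h). The hepatocyte markers Fgb (1.12-fold, 3.32 h) and Cyp2e1 (1.15-fold, 10.99 h) were called as well. Car3 lost its call without any 1 of 5 arrays (adjusted p from 0.0567 to 0.0697, limma): CT00 replicates 1 and 2, CT03 replicate 3 and CT15 replicates 1 and 3. Fabp2 and Cyp2e1 did not keep their calls in every alternative either. Over all alternatives the adjusted p reached 0.175 for Fabp2, 0.122 for Cyp2e1 and 0.161 for Car3 (limma). The part of these markers in the swings of the cholesterol genes was not tested.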

How the data were processed

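RNA of 24 mouse livers, 3 per circadian time, was hybridized to 1 Affymetrix array each, per the labels' protocols. The deposited values were read as log2 intensities that the authors had centred, since the median of every row was 0. How they corrected background and normalized is not given in the sources used here. Centring leaves no level, and no intensity filter was used in the main fits. The intensity classes read from the rounding served only to describe genes and markers and in an alternative fit. Probe sets naming a single gene were averaged by gene, which gave 19935 genes. limma 3.58.1 in R 4.3.3 fitted a 24 h cosine and sine, a further 12 h pair, and the 8 time means, with empirical Bayes moderation and Benjamini-Hochberg adjustment at 0.05, and was tested on simulated data. SEs of peaks came from the delta method. Arrays have no read depth, and their number sets the precision.

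The genes named were all 28 listed cholesterol genes, the 3 of smallest 24 h p among the further cholesterol genes with Srebf1, 5 clock genes, and any marker called. Genes and lists were chosen with earlier results of these data known. Alternatives left out arrays or times, changed the scaling, weights, moderation, probe sets or fold minimum, or added the replicate number. Promoter windows are from RefSeq.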

Additional observations from a re-analysis of the deposited data

How the results depend on the processing

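No result reversed. Leaving out each array in turn gave 17 to 21 genes called by the 24 h test, 15 to 20 by the test over 8 times, 0 to 2 for the 12 h wave, 6 to 14 for CT12 against CT00, 7 to 12 for CT15 against CT03, 4 to 8 for CT18 against CT06 and 4 to 7 for CT21 against CT09. Other alternatives went lower. The 24 h test gave 15 without all of CT03 or all of CT12, against 2132 and 1978 of all genes. The test among times gave 12 without CT03 and 12 without moderation, against 1785 and 1612 of all genes. Of the 19 genes called with all arrays, 17 had a fitted peak from 21 h to 6 h without any 1 array, whether or not each was still called, and 15 had their highest time mean there; 13 to 15 of the 34 pairs of peaks were separated. The 12 h count was 0 with array weights, in the unmoderated test, at a fold of 1.5, on leaving out CT00, CT03, CT06, CT09, CT15 or CT21, and without both doubted CT15 arrays, the last an alternative chosen after seeing the data. With a fold of at least 1.5 the counts were 7 for the 24 h test, 6 for CT12 against CT00, 2 for CT15 against CT03, 2 for CT18 against CT06 and 3 for CT21 against CT09, as the stricter rule requires. Of all 19935 genes, 423, 219, 198, 172 and 182 were called at that fold, in the same order. Without moderation CT18 against CT06 gave 4, against 687 of all 19935 genes. Among brighter probe sets alone, 19 genes were tested and CT21 against CT09 gave 3, against 358 of all 2744 genes, so the set hardly stood out there. The other comparisons 12 h apart gave 9, 9 and 7 in that setting, against 340, 356 and 462 of all genes. Without both doubted CT15 arrays CT15 against CT03 gave 6 calls, and 1 relation in place of 2 passed, as it did without the 2 farthest arrays. The fit with the replicate number as a block called 20 genes by the 24 h test, 20 over 8 times, 2 for the 12 h wave, and 14, 13, 7 and 6 in the comparisons 12 h apart. Calls rose in general in that fit, to 2984, 2664, 168, 837, 1074, 1148 and 880 of all genes in the same order. Without the block they were 2758, 2167, 115, 690, 894, 925 and 709. The replicate numbers were not taken to pair the livers. Of 84 same-numbered pairs 53.6% correlated over 0.1, a share that cannot decide whether the numbers mark a pairing. Their median was 0.11, beside -0.06 and 26.8% for different numbers, and 15 of 24 arrays correlated best with their own number, a hint from the data of shared structure. Deviations cancel within each time, so these medians are not independent of each other. The within-time relations were not rerun with the number as a block. Causes of these changes were not tested. Centred values hide whether a dim gene lay near background, and 3 livers per time limit the precision.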
